A study of Mus musculus with 6 samples.

Results

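The immediate early genes studied here were 10 genes that were matched by gene symbol among the 41388 genes counted in each sample. They are Fos, Fosb, Jun, Junb and Jund, which encode subunits of the transcription factor AP-1, together with Egr1, Atf3, Ier2, Dusp1 and Zfp36. All 10 were found and all 10 passed the filter on low counts (CPM, counts scaled to a common library size, above 1 in at least 3 samples), which left 12192 genes for testing. The RNA came from mammary tumors of FVB/N-TgN(MMTVPyVT)634Mul/J mice (MMTV-PyMT), in which the promoter of mouse mammary tumor virus drives polyoma middle T antigen in the mammary epithelium. Tumor-initiating cells (TICs), sorted as CD24+CD90+CD45- cells, were compared with non-CD24+CD90+ tumor cells, the CD45- cells that lacked at least 1 of the 2 markers, with 3 samples in each group. All mice of both groups carried the transgene and received no treatment, were 12 weeks old by the study's text, and 4 cell sorts were pooled for each sample, which makes a value an average over several tumors. The series design text gives the comparison group as lacking both markers, and the samples are labelled only as primary cells or primary TICs. The samples are called non-TIC 1 to 3 and TIC 1 to 3 in what follows.

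Immediate early genes are transcribed within minutes of a stimulus from factors already present in the cell, without new protein synthesis. Growth factors act on them through the RAS, RAF, MEK and ERK kinases and the factors SRF and ELK, whereas stress acts through the JNK and p38 kinases and cAMP through CREB, which binds the cAMP response element (CRE). FOS proteins pair with JUN proteins to form AP-1, while JUN proteins also pair among themselves. DUSP1 and ZFP36 act against the response, the former by dephosphorylating MAP kinases and the latter by promoting the decay of short-lived mRNAs. Polyoma middle T recruits SRC family kinases, PI3 kinase and SHC, and so acts on the growth factor pathways that induce these genes. Early genes are also known to be induced while solid tissue is digested and sorted. Tumors were digested with DNase, collagenase and hyaluronidase before cells of both groups were sorted, and no undigested tumor was analysed here.

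The promoters of the members were examined for the elements through which these signals act, because the comparison asks whether the genes moved together. RefSeq entries on GRCm38.p6 were found for 8 of the 10 members; Egr1 and Ier2 had none. The 250 bases before each start were searched on both strands for the CRE (TGACGTCA), its half-site (TGACG), the AP-1 site (TGANTCA) and the CArG box that SRF binds. A complete CRE also counts as a half-site on either strand. The Fos, Dusp1 and Zfp36 promoters are shown because they held a complete CRE, a pair of half-sites or a CArG box, with the capitals marking the matched letters. The Fos segment is chr12:85473740-85473849 on the plus strand, the Dusp1 segment is chr17:26508578-26508677 on the minus strand, and the Zfp36 segment is chr7:28379267-28379296 on the minus strand.
Fos: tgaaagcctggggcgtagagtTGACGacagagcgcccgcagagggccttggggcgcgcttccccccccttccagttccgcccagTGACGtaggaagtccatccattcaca
Dusp1: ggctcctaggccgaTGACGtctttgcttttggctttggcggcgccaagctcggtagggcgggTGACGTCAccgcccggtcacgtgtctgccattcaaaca
Zfp36: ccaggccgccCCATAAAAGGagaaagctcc

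Fos held half-sites at positions -129 and -66 from its start, and Dusp1 held a complete CRE at -143 beside a half-site at -191. Zfp36 held a CArG box (CCATAAAAGG) at -58. A single half-site lay at -60 in Fosb, at -106 in Junb and, on the other strand, at -7 in Atf3, whereas Jun and Jund held none of the 4 motifs in this window. Among 32851 mouse promoter windows of the same length, 17.8% held a half-site, 1.55% a complete CRE, 1.47% a CArG box and 6.75% an AP-1 site. None of the 8 members searched held an AP-1 site. These are letter matches, and binding was not measured. Sites farther from the start than this window were not searched, so a gene without a motif here may hold one farther away.

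Total counts ranged from 6781239 to 8450038 in non-TIC samples and from 8114933 to 9100552 in TICs, so that 3 counts corresponded to 0.33 to 0.44 CPM. The lowest count of any member was 85, for Atf3 in non-TIC 3. Between 325 and 1085 of the 12192 genes had no count in a given sample. Of the sorting markers, Thy1, which encodes CD90, had 520, 500 and 151 counts in non-TIC 1 to 3 and 825, 1775 and 533 in TIC 1 to 3. The Cd24a counts were 2754, 3565 and 4209 against 4001, 2701 and 2699 and overlapped between groups, and Ptprc, which encodes CD45, was at 0 except for 33 counts in non-TIC 1. The groups of Thy1 overlapped in normalized CPM and the gene did not pass the test (log2 fold change 1.25, adjusted p = 0.35 by exactTest). Fold changes are TICs over non-CD24+CD90+ tumor cells, from TMM-normalized counts compared by exactTest of edgeR with Benjamini-Hochberg adjustment over all 12192 genes and a threshold of 0.1.

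The early genes were abundant in all 6 samples of both groups. Together they held 0.691%, 0.546% and 0.482% of all counts in non-TIC 1 to 3 and 0.334%, 0.504% and 0.541% in TIC 1 to 3. Of the genes tested, Fos ranked between percentile 98.8 and 99.4 of expression in each sample, so that few genes exceeded it. Egr1 ranked between percentile 98.3 and 99.5, Ier2 between 97.7 and 99.2 and Zfp36 between 95.1 and 99.4. Atf3 was the least abundant member and ranged from percentile 36.1 to 76.9.

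Per kilobase of transcript, the mean over the 6 samples was highest for Fos at 494 RPKM (CPM per kilobase, lowest and highest sample 350 and 635). Ier2 followed at 468 RPKM, Zfp36 at 286, Egr1 at 211, Junb at 207, Jun at 201, Dusp1 at 180 and Jund at 114. Fosb at 26.6 RPKM and Atf3 at 15.8 RPKM stood at the low end. The order of the first pair differed between groups, with Ier2 above Fos in every non-TIC sample (means 595 and 518 RPKM) and Fos above Ier2 in every TIC sample (means 471 and 340 RPKM). The sample ranges of neighbours in this order overlapped in every case but 1. Jund, between 63.9 and 134 RPKM, lay above Fosb, between 17.3 and 35.1 RPKM, in every sample. Lengths were those of 1 principal transcript per gene in GENCODE release M21, so that other isoforms would shift the order.

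**Figure D1:**
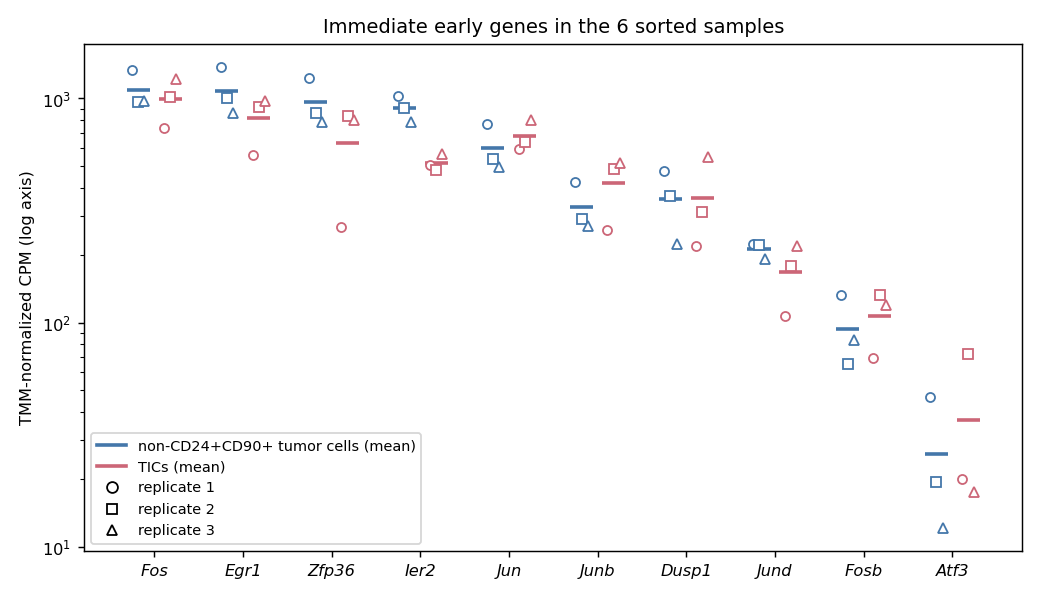
TMM-normalized CPM (log axis) of the 10 genes, ordered by their mean, in the 6 samples. Symbols are single samples, with circle, square and triangle for replicates 1, 2 and 3, and bars are group means. The groups are separate only for Ier2, whose TIC samples lie between 482 and 567 CPM and whose non-TIC samples lie between 784 and 1029 CPM.

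None of the 10 genes passed the test in either direction, and 1 of them, Ier2, had an unadjusted p below 0.05. Over all genes tested, 166 (1.36%) were called higher and 23 (0.189%) lower in TICs, and 957 (7.85%) had an unadjusted p below 0.05. The quasi-likelihood test of edgeR also called 0 members, with 1 at an unadjusted p below 0.05, and called 50 genes in all (0.41%). DESeq2 called 1 member, Ier2, and 306 of 11849 genes with an adjusted p (2.58%). The median log2 fold change of the members was -0.06 against -0.01 for all genes, with 5 of the 10 and 49.7% of all genes above 0.

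**Figure D2:**
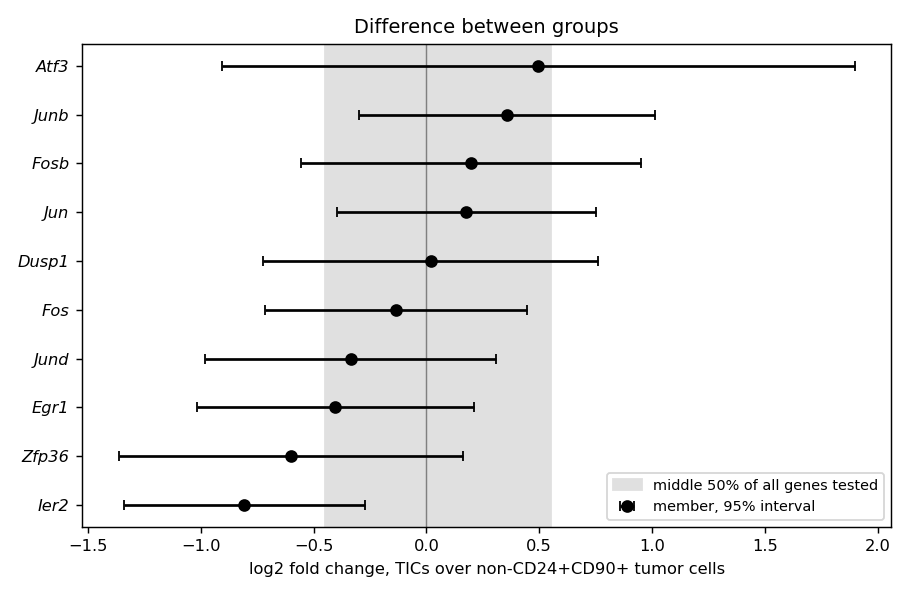
Log2 fold change of each member, TICs over non-CD24+CD90+ tumor cells, with its 95% interval from the negative binomial fit (3 samples per group). The grey band holds the middle 50% of all 12192 genes. The interval of Ier2 runs from -1.34 to -0.27, and those of the other 9 genes include 0.

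Fos, at chromosome 12, 85473890 to 85477273, is the founding member of its family. Its normalized level was 1339, 964 and 971 CPM in non-TIC 1 to 3 and 739, 1019 and 1223 CPM in TIC 1 to 3. Both extremes belonged to replicate 1 of a group, and the other 4 samples lay within those limits. For Fos the log2 fold change was -0.13 (SE 0.30, adjusted p = 1 by exactTest), with an interval from -0.72 to 0.45.

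Fosb encodes a FOS protein that also exists in a shortened splice form, which gene counts cannot tell from the full form. It measured 132, 65.4 and 83.4 CPM in non-TIC samples and 69.9, 133 and 120 CPM in TICs. High and low samples occurred in both groups, and the log2 fold change was 0.20 (SE 0.38, adjusted p = 1 by exactTest).

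Among the JUN partners, Jun (chromosome 4, 95049034 to 95052222, a single exon) measured 766, 539 and 497 CPM in non-TIC samples and 593, 643 and 802 CPM in TICs. Its log2 fold change was 0.18 (SE 0.29, adjusted p = 1 by exactTest), and the highest sample of each group exceeded the lower 2 of the other. Junb, which often has weaker activating properties than JUN, measured 424, 291 and 269 CPM in non-TIC samples and 260, 486 and 515 CPM in TICs. TIC 2 and TIC 3 were above every non-TIC sample whereas TIC 1 was below every non-TIC sample. Its log2 fold change was 0.36, with an interval from -0.30 to 1.01 (adjusted p = 0.999 by exactTest).

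Jund is usually the most evenly expressed JUN gene and the least dependent on a stimulus. It measured 224, 221 and 193 CPM in non-TIC samples and 107, 178 and 220 CPM in TICs. The non-TIC samples lay close together (213 ± 17.0 CPM, SD, n = 3) and the TICs spread more widely (168 ± 57.5 CPM). Its log2 fold change was -0.34 (SE 0.33, adjusted p = 0.999 by exactTest). Junb overlaps Prdx2 on the opposite strand, and antisense genes overlap Jun, Jund and Zfp36. Whether the libraries kept strand is not given in the sources used here, so reads of such pairs may not have been told apart.

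Among the 5 AP-1 members, Fos and Fosb together made up less of the summed counts in each TIC sample than in each non-TIC sample. Fosl2, a FOS family gene outside the members, is not part of this share. It measured 123, 242 and 266 CPM in non-TIC samples and 131, 197 and 210 CPM in TICs. Fos and Fosb accounted for 51.0%, 49.5% and 52.4% of the summed counts of the 5 genes in non-TIC samples. In TICs they accounted for 45.7%, 46.8% and 46.6%. The means were 50.9% ± 1.45 and 46.4% ± 0.590 (SD, n = 3 per group). The difference of -4.54 percentage points had p = 0.1 in an exact two-sided permutation test, the smallest p that 3 against 3 samples allow. Within a sample this share does not depend on how samples are scaled to each other.

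**Figure D3:**
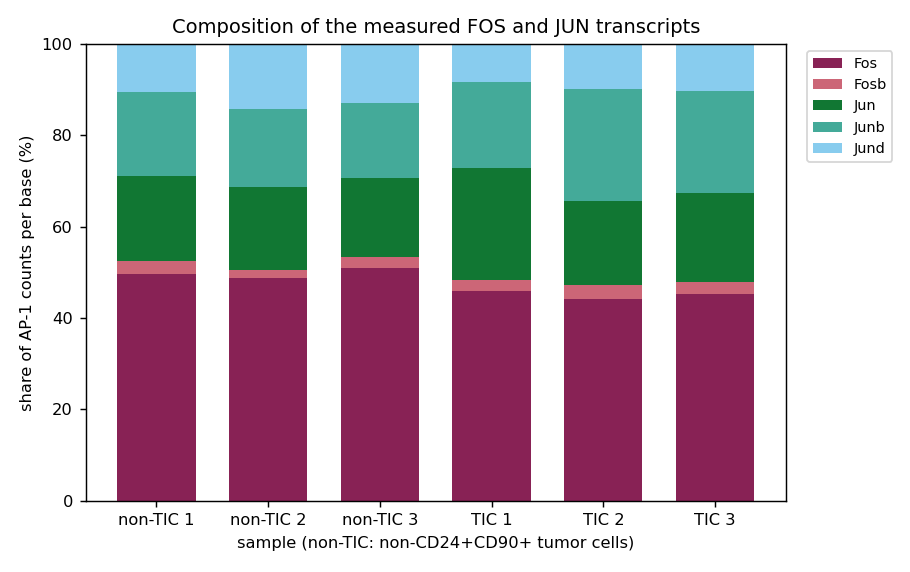
Share of Fos, Fosb, Jun, Junb and Jund in the AP-1 counts of each sample after division by transcript length (stacked bars, percent). On this scale Fos and Fosb together hold 50.6% to 53.4% in the 3 non-TIC samples and 47.3% to 48.4% in the 3 TIC samples.

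On the scale per length, the FOS share was 52.2% ± 1.43 in non-TIC samples and 47.8% ± 0.530 in TICs (exact permutation p = 0.1). Fos alone held 49.7%, 48.8% and 51.0% in non-TIC samples and 46.0%, 44.1% and 45.3% in TICs. Fosb held 2.73%, 1.84% and 2.44% against 2.42%, 3.20% and 2.47%, which overlapped, so the lower joint share was that of Fos. The parts of the JUN genes differed among TICs. Jun held 24.4% in TIC 1 against 18.4% and 19.6% in TIC 2 and TIC 3. Junb held 18.9% in TIC 1 and 24.5% and 22.2% in TIC 2 and TIC 3. Over alternatives the difference of the share of counts ranged from -3.83 points without non-TIC 3 to -6.29 points with Jund left out.

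Egr1 is a zinc finger transcription factor on chromosome 18 (34859823 to 34864984) and a classical target of SRF and ELK. Its level was 1381, 1000 and 858 CPM in non-TIC samples and 558, 914 and 976 CPM in TICs. A log2 fold change of -0.40 had an interval from -1.02 to 0.21 (adjusted p = 0.958 by exactTest), and TIC 2 and TIC 3 lay among the non-TIC samples.

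Atf3, a stress-induced member of the ATF and CREB family, varied most. It measured 46.6, 19.4 and 12.2 CPM in non-TIC samples and 20.1, 72.5 and 17.5 CPM in TICs. TIC 2 was the highest of all samples and non-TIC 1 the second highest, and the other 4 lay between 12.2 and 20.1 CPM. The fitted coefficient of variation between samples was 60.3%, against 23.0% to 33.0% for the other 9 genes. The log2 fold change of 0.50 (SE 0.71, adjusted p = 1 by exactTest) rested on TIC 2 and was -0.46 without it.

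Ier2, a small nuclear protein induced early by growth factors, was the 1 member with groups that did not overlap. It lies on chromosome 8 (84661331 to 84662852) in a single exon. Its level was 1029, 906 and 784 CPM in non-TIC samples and 506, 482 and 567 CPM in TICs. The group means were 906 ± 122 and 518 ± 43.7 CPM (SD, n = 3 per group), which corresponded to 0.572 times the non-TIC level, with a 95% interval from 0.395 to 0.827. Every TIC sample lay below every non-TIC sample, as it did for 920 (7.55%) of all genes tested, while 937 (7.69%) had every TIC sample above.

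The log2 fold change of Ier2 was -0.81 (SE 0.27), with p = 0.0032 and an adjusted p = 0.157 by exactTest. It ranked 1636 of 12192 from the lowest fold change. The exact two-sided permutation test of the single gene gave p = 0.1, its smallest possible value. DESeq2 gave an adjusted p = 0.0049 and the quasi-likelihood test 0.212. Over all alternatives the log2 fold change ranged from -0.90 to -0.69 and the adjusted p from 0.0049 to 0.668, so the direction held in each of them and the call was made by DESeq2 alone.

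As a share of all counts of the 10 genes, Ier2 held 14.6%, 17.3% and 16.8% in non-TIC samples and 15.1%, 9.49% and 9.78% in TICs, and these groups overlapped. Its ratio to single members was lower in every TIC sample than in every non-TIC sample for 4 of the 9 others (Fos, Fosb, Jun and Junb). The ratios to Jund, Egr1, Atf3, Dusp1 and Zfp36 overlapped.

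The summed level of 10 luminal genes was 6667, 6696 and 6294 CPM in non-TIC samples and 4896, 4420 and 4186 CPM in TICs. All TIC samples were below for 6 of the 10 genes, against 920 (7.55%) of all genes tested, and 4 overlapped between groups. The 6 included the most abundant, Krt18, Epcam and Cdh1. No luminal gene passed exactTest, and 2 had an unadjusted p below 0.05, against 957 (7.85%) of all genes. Relative to the summed counts of these 10 genes, Ier2 stood at 15.4%, 13.5% and 12.5% in non-TIC samples and 10.3%, 10.9% and 13.5% in TICs, which overlapped. The part of the epithelial markers in the difference of Ier2 was not tested, and in sorted bulk cells a smaller share of expressing cells and less RNA per cell cannot be told apart.

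Dusp1, the phosphatase of MAP kinases, measured 475, 367 and 225 CPM in non-TIC samples and 220, 313 and 547 CPM in TICs. Its log2 fold change was 0.02, with an interval from -0.72 to 0.76 (adjusted p = 1 by exactTest). The samples of each group spread over more than the difference between the means of 355 and 360 CPM. Ergic1 overlaps the annotated gene on the opposite strand.

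Zfp36, the mRNA decay factor also called tristetraprolin, measured 1238, 864 and 785 CPM in non-TIC samples and 267, 833 and 803 CPM in TICs. TIC 1 was far below the other 5, and TIC 2 and TIC 3 lay within the non-TIC range. TICs over non-TIC samples gave a log2 fold change of -0.60 (SE 0.39, adjusted p = 0.879 by exactTest) and -0.22 without TIC 1.

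Summed over the 10 genes, the level varied more between samples of a group than between the groups. Each gene was centred on its mean log2 CPM, and the average over the 10 genes was 0.49, -0.04 and -0.24 in non-TIC 1 to 3 and -0.58, 0.19 and 0.18 in TIC 1 to 3. Their summed level was 7053, 5237 and 4677 CPM in non-TIC samples and 3340, 5073 and 5790 CPM in TICs. The group means of 5655 ± 1242 and 4735 ± 1260 CPM (SD, n = 3 per group) differed by less than the spread within either group.

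**Figure D4:**
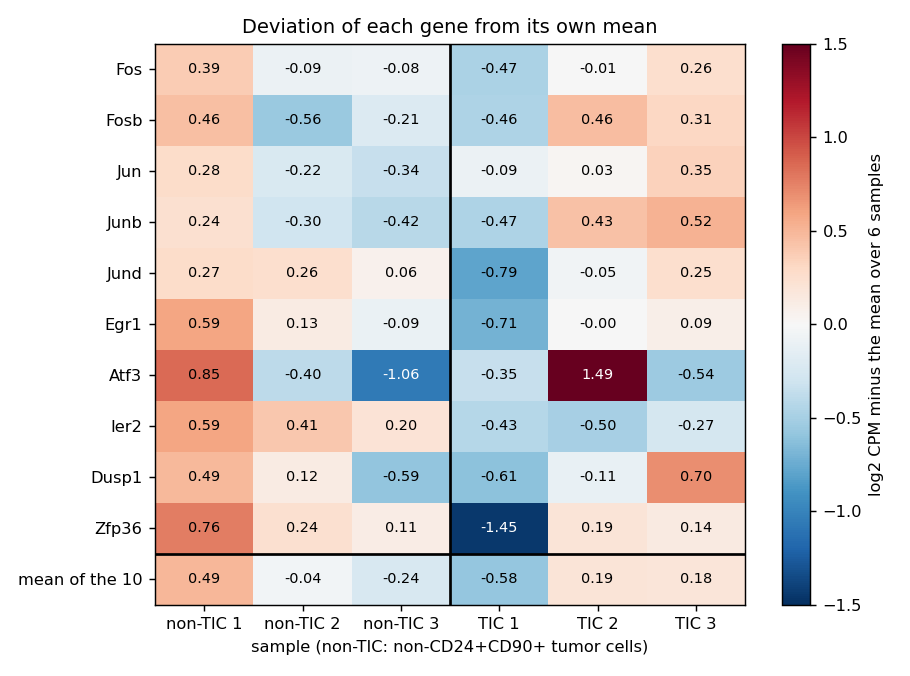
Log2 CPM of each gene minus its mean over the 6 samples, with the average of the 10 genes in the last row. Red is above and blue below the mean of the gene. The column of non-TIC 1 is above 0 for every gene and the column of TIC 1 is below 0 for every gene.

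Non-TIC 1 was the highest of its group for 10 of 10 members, against 37.7% of the 2024 genes with a mean of at least 100 CPM. TIC 1 was the lowest of its group for 8 of 10 members, against 36.5% of those genes. Non-TIC 3 was also the lowest of its group for 8 of 10 (34.4%), and TIC 3 was the highest of its group for 7 of 10 (37.4%). For TIC 1 the exceptions were Ier2, lowest in TIC 2, and Atf3, lowest in TIC 3. The counts of non-TIC 1 and TIC 1 were 10 and 8 with RLE size factors and 9 and 8 with library size alone. The members share libraries and cells, so the counts describe single samples and are not 10 separate observations. Without non-TIC 1 the median log2 fold change of the members was 0.17, and without TIC 1 it was also 0.17, so that its sign depended on either sample.

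Heat shock genes, which also respond to tissue handling, had their highest sum in non-TIC 1 and their lowest in TIC 1, but this did not hold gene by gene. The 16 genes summed to 14040, 11155 and 9913 CPM in non-TIC samples and 8701, 11010 and 9968 CPM in TICs. Hsp90ab1, a chaperone, made up most of this with 8034, 6028 and 5963 CPM against 4806, 6110 and 6077 CPM. Singly, 8 of the 16 were highest of their group in non-TIC 1 (34.1% of all genes tested) and 5 of the 16 were lowest in TIC 1 (31.1%). Hspa1a, an inducible heat shock gene named after its values were seen, was lowest in TIC 3, with 197, 242 and 25.6 CPM in TIC 1 to 3. Mitochondrial transcripts held 2.91%, 1.93% and 1.95% of counts in non-TIC samples and 3.21%, 3.51% and 5.01% in TICs. The part of handling in the level of the early genes was not tested.

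Genes outside the list that followed the average profile of the members most closely were sought among 6764 genes with a mean of at least 20 CPM. The measure was the root mean square difference of centred log2 CPM over the 6 samples, whose median was 0.592 over these genes. The 5 closest were Dbi (0.089), Tra2b (0.107), Nap1l1 (0.111), Slc2a4 (0.112) and Myo10 (0.112). Dbi, an acyl-CoA binding protein, measured 701, 570 and 480 CPM in non-TIC samples and 368, 571 and 603 CPM in TICs. The 5 were picked as the smallest of 6764 differences over 6 samples, so their closeness is no separate evidence of a link. Of the members themselves, each of which is part of the average, Fos was the closest to it (0.129), followed by Egr1 (0.144). Atf3 was the farthest (0.729).

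Of the wider early response, 135 further genes in 6 lists were examined and 122 of them were kept and tested. The exactTest called 2 of the 122 (1.64%), against 189 (1.55%) of all genes tested in either direction. This share was near the background, but it covers calls of exactTest alone. An unadjusted p below 0.05 by exactTest was found for 957 (7.85%) of all genes. The share of genes with such a p was larger in every list except the other AP-1 and bZIP partners. Each list's count is given with that list. DESeq2, which called 2.58% of all genes, called a larger share of the genes of the lists, and its calls are given in the last section. Of 23 early transcription factors kept from a list of 26, 0 were called in either direction and 3 had an unadjusted p below 0.05. The median log2 fold change was 0.05. Cebpb, Klf6 and Cebpd were the most abundant, and Cebpb, which directs acute phase and differentiation programs, measured 862, 662 and 697 CPM in non-TIC samples and 683, 930 and 681 CPM in TICs. Egr3 was at 0 in all samples.

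Of 32 early regulators of signal, RNA and protein kept from a list of 36, 1 was called, Dusp5, which was lower in TICs. The median log2 fold change was -0.01, with 15 of 32 above 0. An unadjusted p below 0.05 by exactTest was found for 7 of the 32, against 957 (7.85%) of all genes. Every TIC sample lay below every non-TIC sample for 6 of the 32, against 920 (7.55%) of all genes, and 23 of the 32 overlapped. Dusp5 encodes a nuclear phosphatase of ERK and is itself induced by ERK. It measured 265, 164 and 150 CPM in non-TIC samples and 83.5, 94.3 and 70.9 CPM in TICs, so that no TIC sample reached the lowest non-TIC sample. Its log2 fold change was -1.22 (SE 0.33, adjusted p = 0.041 by exactTest).

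The call of Dusp5 was lost without non-TIC 1 (adjusted p = 0.496), without non-TIC 2 (0.102), without TIC 2 (0.101) and without TIC 3 (0.173), all by exactTest. It was also lost in the quasi-likelihood test (0.169) and with no filter on low counts (0.113). The log2 fold change stayed between -1.37 and -0.91 in all settings.

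Btg2, an antiproliferative regulator, was the most abundant of these regulators, followed by Dusp6 and Nfkbia. It measured 594, 319 and 402 CPM in non-TIC samples and 150, 274 and 215 CPM in TICs (log2 fold change -1.04, adjusted p = 0.123 by exactTest). Dusp6, a cytoplasmic phosphatase of ERK, measured 345, 289 and 387 CPM against 237, 179 and 254 CPM (log2 fold change -0.61, adjusted p = 0.579 by exactTest). The groups of both genes were separate, with TICs below, and neither passed. Nfkbia, the inhibitor of NF-κB, overlapped between groups with a log2 fold change of -0.04.

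**Figure D5:**
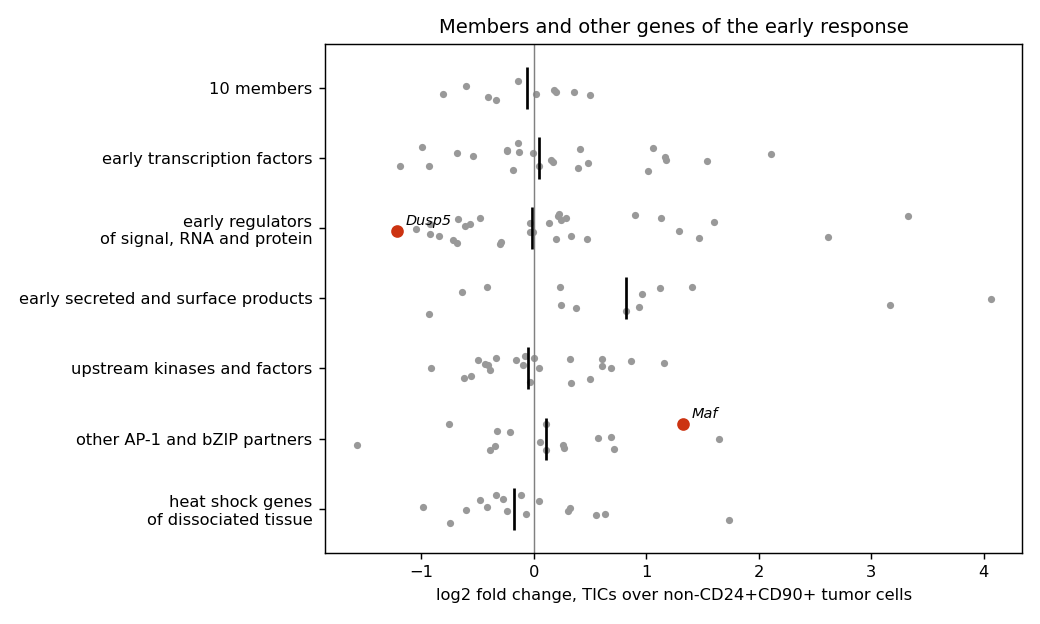
Log2 fold change, TICs over non-CD24+CD90+ tumor cells, of the members and of the genes of 6 further lists. Each point is a gene, the vertical bar is the median of its list, and red points passed exactTest at an adjusted p below 0.1. Dusp5 at -1.22 and Maf at 1.32 are the 2 genes that passed.

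Of 13 early secreted and surface products kept from a list of 18, 0 were called and 4 had an unadjusted p below 0.05. The median log2 fold change was 0.82, with 10 of 13 above 0. Ccn1, a matricellular protein, was the most abundant with 636, 340 and 393 CPM in non-TIC samples and 623, 525 and 626 CPM in TICs. Ccn2 had a log2 fold change of 0.82 and Thbs1 one of -0.64, and neither passed (adjusted p = 0.583 and 0.941 by exactTest). Ereg was at 0 in all samples.

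The 22 upstream kinases and factors were all kept, 0 were called, and 2 had an unadjusted p below 0.05. Their summed level was 1665, 1812 and 1677 CPM in non-TIC samples and 1831, 1549 and 1675 CPM in TICs, so that non-TIC 1 and TIC 1 did not stand out in the order seen for the members. Mapk3, which encodes ERK1, measured 415, 424 and 323 CPM against 387, 322 and 336 CPM. Map2k2, which encodes MEK2, and Elk4 had log2 fold changes of -0.07 and 0.50 and did not pass.

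Among 16 other AP-1 and bZIP partners kept from a list of 17, Maf was called and was higher in TICs, and 1 had an unadjusted p below 0.05. Maf encodes a large MAF transcription factor and measured 66.4, 47.5 and 48.1 CPM in non-TIC samples and 98.8, 154 and 153 CPM in TICs. The groups did not overlap, and the log2 fold change was 1.32 (SE 0.36, adjusted p = 0.032 by exactTest). The call was lost without non-TIC 2 (adjusted p = 0.283), non-TIC 3 (0.24), TIC 2 (0.217) or TIC 3 (0.11), all by exactTest, and in the quasi-likelihood test (0.162). Atf4 and Mafg, among the most abundant of this list, had log2 fold changes of 0.06 and -0.21 and overlapped between groups.

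Of the 16 heat shock genes, 0 were called, 2 had an unadjusted p below 0.05, and the median log2 fold change was -0.17. Hsp90ab1 and Hspa5 had log2 fold changes of -0.24 and -0.11.

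Fibroblast, pericyte and endothelial markers had higher sums in every TIC sample than in any non-TIC sample, and their part in the values of Ier2, Dusp5 and Maf was not tested. The summed level of the fibroblast markers was 888 to 926 CPM in non-TIC samples and 1545 to 2964 CPM in TICs, with 4 of 7 called higher (Dcn, Col3a1, Mfap5 and Pi16). Over all genes tested, 166 (1.36%) were called higher. Pericyte markers summed to 449 to 517 CPM against 883 to 1428 CPM, with Rgs5 called higher among 7, and endothelial markers to 194 to 237 CPM against 248 to 952 CPM, with 0 of 10 called. Basal or myoepithelial markers summed to 822 to 1376 CPM against 673 to 1073 CPM, with 0 of 7 called. Of the leukocyte markers 5 of 10 were kept, summing to 20.7 to 46.5 CPM against 32.6 to 101 CPM, with Lyz2 called higher, while Adgre1 and Cd3e were at 0 in all samples. Fabp4 was called higher and was the 1 adipocyte marker kept, and Adipoq, Plin1 and Lep were at 0. Of 3 erythroid genes kept, 0 were called, and the sums were 26.7 to 100 CPM against 15.4 to 161 CPM.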

How the data were processed

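The authors sequenced RNA of 6 pools of sorted cells, 3 per group. Reads were trimmed with Trimmomatic (version 0.32) and aligned to GRCm38 with STAR (version 2.4.0), reads without a unique position were removed, and HTSeq counted the rest. SAMtools 1.1 is also named in the submitters' processing notes. The deposited values are raw counts per Ensembl gene, so genes with near-identical copies can be undercounted. The annotation release and the strand setting are not given in the sources used here. Symbols were assigned to 40254 of the 41388 genes from GENCODE release M21.

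Genes above 1 CPM in at least 3 samples were kept, normalized by TMM and compared with exactTest of edgeR (version 4.0.16, R version 4.3.3) with common and tagwise dispersions. The study's methods name a CPM threshold without its value, exactTest and the Benjamini-Hochberg method. The CPM limit, TMM and the dispersion estimates were chosen here. The common dispersion was 0.678. Standard errors and 95% intervals came from the negative binomial fit. CPM values are TMM-normalized. Centred values used a prior count of 2. The alternatives were the quasi-likelihood test, a Wald test in DESeq2 (version 1.42.0), scaling by RLE or by library size alone, no filter or filterByExpr, a threshold of 0.05 and leaving out each sample. The code was tested on simulated counts. P-values measure the spread between these pools only. Named genes were the members, the called and the 3 most abundant genes of each list, the 5 of most similar profile and the sorting markers. The members and lists were chosen with earlier results of these data known. Shares and ratios of Ier2 and ranks within groups were chosen after seeing the data. Some genes that the naming rule selects are not reported here.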

Additional observations from a re-analysis of the deposited data

How the results depend on the processing

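Over 12 alternatives and 10 members, 112 of 120 log2 fold changes kept their direction and side of the threshold, and Ier2 passed with DESeq2 (-0.78). The sign turned 7 times. Dusp1 was at -0.051 with library size alone and ranged from -0.39 without TIC 3 to 0.29 without non-TIC 1 (-0.22 without non-TIC 3). Fos ranged from -0.29 to 0.055 (0.055 without TIC 1, 0.049 without non-TIC 1), Fosb from -0.0030 without non-TIC 2 to 0.54 without non-TIC 1, and Atf3 from -0.46 without TIC 2 to 1.23 without non-TIC 1. The number of members called was 1 with DESeq2 and 0 in the other settings. DESeq2 called 306 genes in all (2.58%). In the lists it called 1 early transcription factor (Klf4) and 4 early regulators (Btg2, Dusp5, Gadd45b and Trib1). It also called 1 secreted product (Ccl2), 1 bZIP partner (Maf) and 1 heat shock gene, with names chosen after their values were seen. The quasi-likelihood test called 50 genes, 0 early regulators and 0 bZIP partners. Library size alone called 2 regulators (Dusp5 and Btg2). No filter gave 112 genes and 0 regulators, and an adjusted p below 0.05 gave 116 genes. With samples left out the calls ranged from 72 genes without non-TIC 3 to 323 without TIC 1 (189 with all samples), with 87 without non-TIC 1, 90 without non-TIC 2 and 102 without TIC 2. The early regulators then gave 0 to 2 calls, the transcription factors 0 to 1 (Klf4 without TIC 1), the secreted products 0 to 1 (Ccl2 without non-TIC 3) and the bZIP partners 0 to 1. The median log2 fold change of the members ranged from -0.34 without TIC 3 to 0.17 without non-TIC 1. The cause of these changes was not tested. Fits with a sample left out hold fewer samples, and yet the number of genes called rose without TIC 1. The median of all genes moved by 0.03 with RLE factors and -0.06 with library size alone. No paired analysis was possible because the labels number the samples 1 to 6 and pair none. The study does not say outright whether pools of both groups came from the same mice. Each of its samples pooled tumors of several mice, and the total of mice it gives would cover the pools of either group alone. Both groups may therefore have been sorted from the same mice. The tests treated the 6 pools as separate and would ignore such a pairing.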
